A study of Mus musculus with 4 samples.

Results

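In tumors from Esm1 KO and WT mice, 1400 autosomal regions of open chromatin lay over protein-coding sequence and away from the starts of protein-coding transcripts. They came out of 122166 merged regions in all and 47118 autosomal regions that had a peak in all 4 libraries. Annotated starts of other kinds were not excluded, and 309 of the 1400 (22.1%) lay within 1 kb of such a start. Each of the 1400 overlapped annotated coding sequence (CDS) by at least 100 bp, had its midpoint more than 5 kb from every start of a protein-coding transcript, and carried a peak in all 4 libraries. The regions were thus selected on where the peaks of these libraries fell, so their presence in every library is a description and no test result. They lay in 1275 genes, of which 1168 held 1 region, 94 held 2 and 13 held 3 or more.

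Open chromatin was measured by ATAC-seq, in which a transposase cuts DNA that is free of nucleosomes. The tumors grew from mG7080 cells, a glioma line derived from mice with mutated tumor suppressor genes, placed in the brains of C57BL/6 hosts. The KO group held 2 tumors from hosts that lack Esm1, the gene of the secreted proteoglycan Endocan, and the WT group held 2 tumors from hosts with the gene. The deletion is in the host alone, and both groups received the same line. The labels describe tumor tissue, the study's methods describe freshly isolated tumor cells, and the study's results speak of cultures grown from the tumors. Which of these was used cannot be told apart here. Nothing in the labels says how far the tumors of a group were handled apart, so p-values measure the spread between these samples, which may be in part technical.

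Protein-coding exons are usually read for their amino acids, but the same bases can also bind regulatory proteins. An open exon can mark an enhancer inside the gene body, the promoter of a shorter or noncoding transcript, or a site of the insulator protein CTCF, which anchors chromatin loops. In mammalian genomes, clusters of unmethylated CpG dinucleotides, called CpG islands, are found mostly at promoters and also within some exons.

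The libraries differed in depth and in which marker genes of cell types were open. The deposited lists held 82975 and 85418 peaks in KO replicates 1 and 2, against 63000 and 100088 in WT replicates 1 and 2, and the genome background of a library, the lowest local background under any of its peaks and a measure of relative depth, was 6.03 and 6.71 reads, against 4.41 and 6.85. Of 8 marker genes of mature oligodendrocytes, 2 and 2 had a peak within 1 kb of a start in KO replicates 1 and 2, against 7 in WT replicate 1 and 2 in WT replicate 2. Of 9 microglia and macrophage genes, 2 and 3 had one, against 0 and 3. Endothelial genes were open in 2 and 3 of 9, against 2 and 4, and T cell genes in 0 of 6 in all 4 libraries. Markers of glioma and precursor cells, the labelled cell type, were open in 7 and 8 of 8, against 8 and 7. Neuron genes were open in 5 and 6 of 7, against 6 and 6. Mural genes were open in 3 and 4 of 8, against 2 and 5. WT replicate 1 therefore stood apart, and results that rest on it are given with and without it.

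The exon itself took up only part of each region. Regions were 255 to 2557 bp wide with a median of 852.5 bp, and their overlap with coding sequence ran from 100 to 1643 bp with a median of 174.5 bp. Coding bases made up 27.8% of all bases in the regions, and 40 regions were coding throughout. The summit of the peak, the position where reads piled up highest, fell on a coding base in 32.8% and 33.9% of the regions in KO replicates 1 and 2, against 32.6% and 32.4% in WT replicates 1 and 2. These shares lay within 2 percentage points of each other and slightly above the share of coding bases. In 250 regions the summit was coding in all 4 libraries, in 465 it was so in some, and in 685 in none. Where it was coding in none, the middle summit lay a median of 185 bp from the nearest coding base, with quartiles of 105 and 292 bp. The 4 summits of a region spread over a median of 123 bp, so the placement of a summit against an exon border is no finer than that.

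Long and terminal exons were more frequent under the regions than among countable exons, though each kind was a minority. Countable exons are those with at least 100 coding bp and a midpoint more than 5 kb from every coding start. The coding part of the exon was at least 500 bp long in 187 of the 1400 regions (13.4%), against 4.72% of the 91461 countable exons. Its median length was 166 bp under the regions, against 151 bp in countable exons. The last coding exon of its transcript was the exon hit in 306 regions (21.9%), against 14.1% of countable exons, where an exon was counted as last if it was so in any transcript. A long exon offers more bases to a peak, and no test was run on either share. The nearest start of a protein-coding transcript was a median of 17.8 kb away, and up to 536 kb. An annotated start of another kind was close to some of them: 257 regions lay within 1 kb of the start of a transcript of a coding gene that is not itself protein-coding, and 74 within 1 kb of a noncoding gene's start, 309 regions (22.1%) in all.

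Sequence at the border of an exon shows how these regions straddle coding and noncoding DNA. Here and below, regions for printed sequences were chosen after the 41 regions of 1 autosome were left out. The 141 bases around the middle summit are given for the 4 tallest regions where this stretch holds an exon border with at least 30 coding and 30 noncoding bases, 5′ to 3′ on the strand of the gene in GRCm38, with coding bases in capitals.
Spaca6 (chr17:17838260-17838400, plus strand): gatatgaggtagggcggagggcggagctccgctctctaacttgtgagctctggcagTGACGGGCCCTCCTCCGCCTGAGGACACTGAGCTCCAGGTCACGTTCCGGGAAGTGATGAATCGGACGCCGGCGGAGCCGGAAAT
Msra (chr14:64440615-64440755, minus strand): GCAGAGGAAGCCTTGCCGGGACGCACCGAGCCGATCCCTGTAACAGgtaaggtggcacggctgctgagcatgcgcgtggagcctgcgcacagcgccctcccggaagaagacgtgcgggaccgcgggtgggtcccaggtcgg
Magi2 (chr5:20701975-20702115, plus strand): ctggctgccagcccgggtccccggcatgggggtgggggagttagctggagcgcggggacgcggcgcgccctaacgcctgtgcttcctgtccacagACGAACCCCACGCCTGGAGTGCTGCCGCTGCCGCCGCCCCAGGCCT
Trim14 (chr4:46507360-46507500, minus strand): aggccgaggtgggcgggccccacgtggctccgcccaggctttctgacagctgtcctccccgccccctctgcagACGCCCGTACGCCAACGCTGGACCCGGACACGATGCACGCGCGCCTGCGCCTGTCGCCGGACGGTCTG
In Spaca6, Magi2 and Trim14 the capitals follow an ag, the acceptor end of an intron, and in Msra they precede a gt, the donor end. These stretches held 12, 15, 14 and 18 CpG dinucleotides in Spaca6, Msra, Magi2 and Trim14. At Spaca6, Msra and Magi2 an annotated start of another kind lay 99, 286 and 49 bp from the region midpoint. Trim14 had none within 1 kb. Spaca6 encodes a sperm protein needed for fertilization, and Msra repairs oxidized methionine. Magi2 is a synaptic scaffold and Trim14 a tripartite motif protein of innate immunity. Summit height, a pileup of reads that is not corrected for depth, was 93 and 131 reads at exon 8 of Spaca6 in KO replicates 1 and 2, against 89 and 126 in WT replicates 1 and 2. For Msra exon 6 it was 100 and 106, against 94 and 104, for Magi2 exon 22 it was 105 and 124, against 72 and 112, and for Trim14 exon 6 it was 87 and 95, against 80 and 103. None of the 4 differences between KO and WT passed the limma test on log2 heights centred within each library.

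To compare libraries of different depth, heights were expressed as multiples of the background of their own library. On this scale the 1400 regions had medians of 6.14 and 5.81 in KO replicates 1 and 2, against 6.12 and 6.57 in WT replicates 1 and 2, and they spanned 2.82 to 20.9 and 2.53 to 22.2, against 3.17 to 27.4 and 2.63 to 22.1. Intronic regions, counted together with noncoding exons, had medians of 5.97 and 5.36, against 5.66 and 6.43, and regions within 1 kb of a coding start had 11.9 and 12.4, against 14.0 and 12.1. By their medians, coding exon regions were slightly taller than introns and much lower than promoters in all 4 libraries. Of the 1400, 338 (24.1%) were above the median region in every library, against 36.7% of all 47118, promoters included.

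The 10 tallest regions, ranked by the lowest of their 4 within-library percentiles, reached promoter levels. Exon 3 of Zfp771, a C2H2 zinc finger gene (chr7:127253677-127254912), had heights of 126 and 147 reads in KO replicates 1 and 2, against 113 and 151 in WT replicates 1 and 2, or 20.9 and 21.9 times the genome background, against 25.6 and 22.1. Its region overlapped 810 coding bases, the whole coding part of the last exon, and all 4 summits were coding. Exon 6 of Phf19, a Polycomb-like partner of the PRC2 complex, had 20.1 and 22.2 times the background, against 27.4 and 21.8, with no coding summit and with the start of another transcript of the gene 261 bp from the midpoint. Exon 34 of Uggt2, a folding sensor of the endoplasmic reticulum, had 17.9 and 18.0, against 24.2 and 18.3. An annotated start of another kind lay 180 bp from the midpoint of that region. Prdm2, which encodes a PR-domain zinc finger protein, had 17.8 and 19.2, against 21.1 and 16.4, at exon 6. No summit was coding at Uggt2 or Prdm2. WT replicate 1 was the highest library at all 4 genes.

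The remaining 6 were Nrg2, 1700008O03Rik, Cacna1a, Prkd2, Spaca6 and Shf. Nrg2 encodes a neuregulin that acts on ErbB receptors, and its last exon had 15.9 and 16.2 times the background in KO replicates 1 and 2, against 22.4 and 16.5 in WT replicates 1 and 2. The last exon of Cacna1a, the pore subunit of the P/Q-type calcium channel, had 16.4 and 17.3, against 20.8 and 15.8. For Prkd2, protein kinase D2, the values were 15.4 and 16.2, against 20.2 and 17.2, and for the adaptor gene Shf 16.6 and 15.5, against 19.3 and 17.8. At 1700008O03Rik they were 17.6 and 16.4, against 18.8 and 16.2. Annotated starts of another kind also lay 289, 427 and 99 bp from the midpoints at Cacna1a, Prkd2 and Spaca6. At Zfp771, Prdm2, Nrg2, 1700008O03Rik and Shf none lay within 1 kb. All 4 summits were coding at Nrg2 and Cacna1a, 2 at Spaca6, 1 at 1700008O03Rik and none at Prkd2 and Shf. WT replicate 1 was the highest of the 4 libraries in all 10 regions on this scale. None of the 10 passed the test between KO and WT described below, and their log2 differences ran from -0.19 for Nrg2 to 0.06 for Prdm2.

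**Figure D1:**
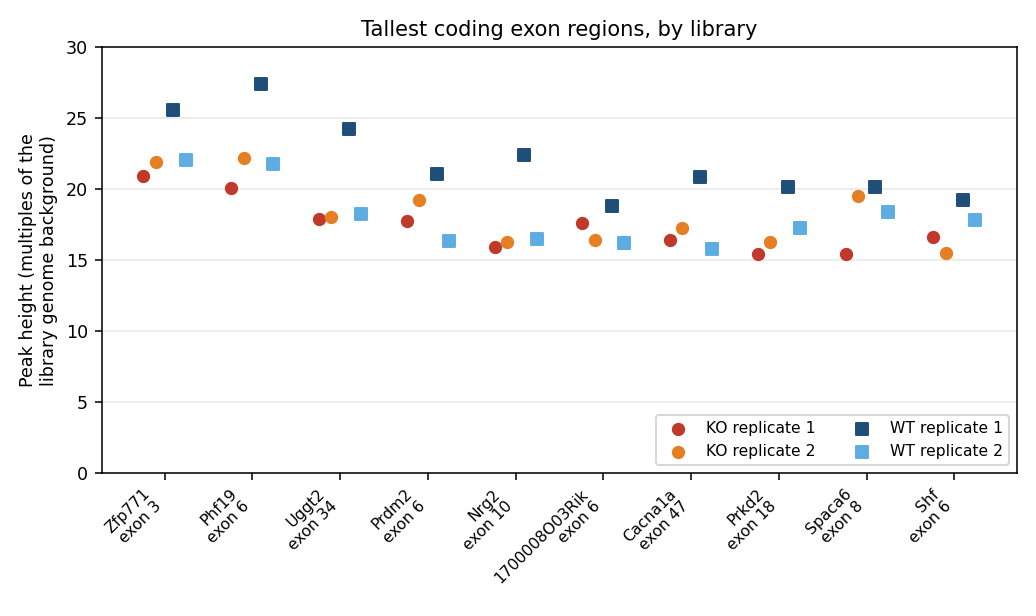
Peak height of the 10 tallest coding exon regions in multiples of the genome background of each library (vertical axis, from 0), with KO libraries as circles to the left and WT libraries as squares to the right of each gene (horizontal axis). WT replicate 1 is the highest point for every gene, up to 27.4 at Phf19.

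The base composition of coding exon regions lay between that of introns and that of promoters, as the plot of composition by class shows. Their median G + C content was 51.9% (quartiles 47.3% and 56.2%), against 47.4% in intronic regions, 47.2% in intergenic regions and 59.6% within 1 kb of a coding start. The observed over expected number of CpG dinucleotides had a median of 0.31, against 0.23, 0.24 and 0.71. Of the 1400 regions, 129 (9.21%) were CpG-rich, here at least 200 bp with G + C of at least 50% and a ratio of at least 0.6, against 0.825% of intronic, 3.12% of intergenic and 69.5% of promoter regions. Coding DNA holds more G + C than introns throughout the genome, and this background was not subtracted.

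**Figure D2:**
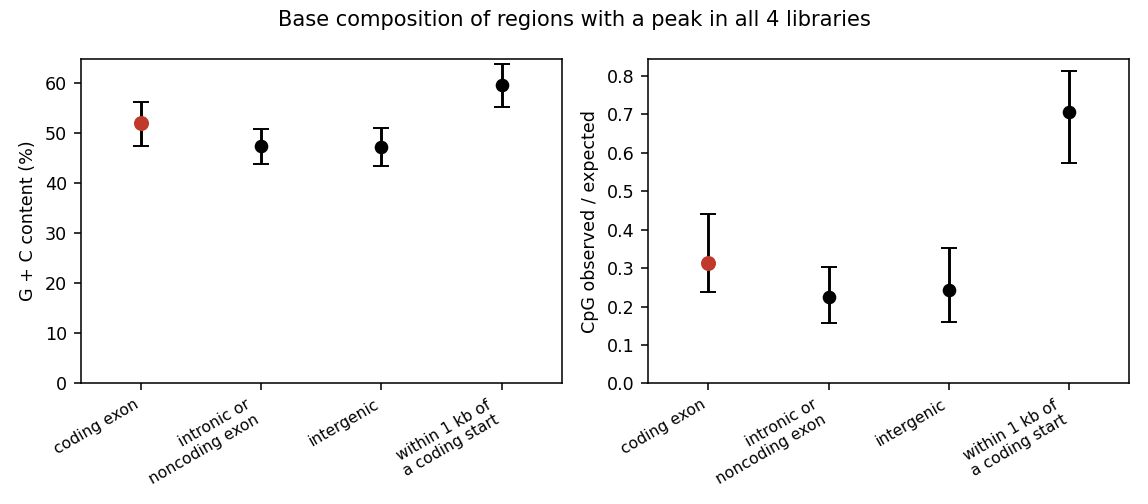
Base composition of regions with a peak in all 4 libraries, by class (horizontal axes), as G + C content in percent (left) and CpG observed over expected (right). Points are medians and bars run between the quartiles. Coding exon regions (red) lie above introns and intergenic regions, and below regions at coding starts, in both measures.

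The CpG-rich regions are best seen in their sequence. The bases around the middle summit are given for Zfp771, the tallest region. They are also given for the 3 regions with the highest ratio outside the autosome left out above. All are on the strand of the gene in GRCm38, with each CpG in capitals.
Zfp771 (chr7:127254161-127254361, plus strand): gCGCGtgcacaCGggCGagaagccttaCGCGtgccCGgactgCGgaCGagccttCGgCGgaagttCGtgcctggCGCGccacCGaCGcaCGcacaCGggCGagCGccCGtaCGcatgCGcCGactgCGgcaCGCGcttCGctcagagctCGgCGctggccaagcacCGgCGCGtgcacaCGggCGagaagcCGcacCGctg
Apba1 (chr19:23893327-23893467, plus strand): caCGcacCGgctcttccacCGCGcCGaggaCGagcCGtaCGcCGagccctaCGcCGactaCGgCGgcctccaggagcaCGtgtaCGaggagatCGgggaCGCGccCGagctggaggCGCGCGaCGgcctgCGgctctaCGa
Neurl1a (chr19:47253188-47253328, plus strand): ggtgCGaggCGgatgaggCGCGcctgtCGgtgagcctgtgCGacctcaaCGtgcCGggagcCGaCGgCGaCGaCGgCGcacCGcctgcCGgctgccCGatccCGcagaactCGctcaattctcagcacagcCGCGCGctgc
Cacna1a (chr8:84559246-84559386, plus strand): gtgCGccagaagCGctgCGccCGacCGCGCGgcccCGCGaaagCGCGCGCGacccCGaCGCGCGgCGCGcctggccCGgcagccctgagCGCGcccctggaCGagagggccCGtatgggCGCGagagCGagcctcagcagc
The 201 bases of Zfp771 held 37 CpG dinucleotides, and the 141 bases of Apba1, Neurl1a and Cacna1a held 25, 22 and 27. Apba1 encodes a neuronal adaptor of the amyloid precursor protein, and Neurl1a a ubiquitin ligase of the Neuralized family. The ratio over the whole region was 1.20 for Apba1 exon 2, 1.19 for Neurl1a exon 4, 1.18 for Cacna1a exon 19 and 1.06 for Zfp771 exon 3. The ratio gave no order of height among these genes. Apba1 had 28 and 33 reads in KO replicates 1 and 2, against 24 and 43 in WT replicates 1 and 2, Neurl1a had 29 and 28, against 18 and 37, and Cacna1a exon 19 had 48 and 40, against 27 and 36. The 4 summits were coding in each of these genes. Zfp316 exon 5, with a ratio of 1.14, had 50 and 45 reads, against 28 and 58, and Snx20 exon 4, a sorting nexin gene with a ratio of 1.08, had 91 and 92, against 85 and 106.

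Motifs were searched on both strands within 100 bp of the middle summit. The CTCF core, of 12 letters, was found in 101 regions (7.21%, 95% Wilson interval 5.97% to 8.69%), against 4.22% of intronic, 5.57% of intergenic and 0.660% of promoter regions and 3.92% of all 47118. The GC box, GGGCGG, which Sp and Klf factors bind, was found in 14.3%, against 6.55%, 9.13%, 58.4% and 22.2%. The E-box CAGCTG, bound by basic helix-loop-helix factors, was found in 21.3%, against 18.0%, 17.2%, 11.9% and 16.2%. By contrast the AP-1 motif TGANTCA was found in 10.1%, against 14.7%, 13.6%, 2.86% and 10.8%, and the E-box CATATG in 3.50%, against 6.71%, 6.70%, 0.676% and 4.76%. The G + C content of the classes differed, as given above, and its part in these shares was not tested. The GC box holds a CpG in its own letters. A match is a run of letters and no evidence that a factor was bound.

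The CTCF core matches lay mostly beside the exon and not in it, as did most bases of the regions, of which 27.8% were coding. Of the 101, 85 had no coding base, 13 (12.9%) were coding throughout and 3 were partly so, and 33 were on the strand of the gene and 68 on the other. The 52 bases around the match are given for the 5 tallest such regions outside the autosome left out above. They are on the strand of the gene in GRCm38, with the CTCF core in capitals.
Asb2 (chr12:103325656-103325707, minus strand): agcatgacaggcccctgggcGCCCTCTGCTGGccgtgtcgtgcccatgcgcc
Phc2 (chr4:128711540-128711591, plus strand): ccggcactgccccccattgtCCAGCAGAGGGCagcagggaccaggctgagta
Ccdc162 (chr10:41678963-41679014, minus strand): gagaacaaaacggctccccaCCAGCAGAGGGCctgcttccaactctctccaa
Fxyd2 (chr9:45408488-45408539, plus strand): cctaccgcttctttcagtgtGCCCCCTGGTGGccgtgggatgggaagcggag
Ncoa3 (chr2:166059897-166059948, plus strand): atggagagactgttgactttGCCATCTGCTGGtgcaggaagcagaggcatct
Asb2 encodes a substrate receptor of a ubiquitin ligase, Phc2 a Polyhomeotic subunit of the PRC1 complex, Fxyd2 a regulator of the sodium pump and Ncoa3 a coactivator of nuclear receptors. Asb2 exon 8 had 60 and 59 reads in KO replicates 1 and 2, against 58 and 70 in WT replicates 1 and 2. For Phc2 exon 7 height was 59 and 68, against 56 and 63, and for Ccdc162 exon 8 it was 52 and 59, against 39 and 61. Fxyd2 exon 3 had 58 and 66, against 35 and 68, and Ncoa3 exon 15 had 58 and 50, against 34 and 69. Heights in reads follow the depth of a library, and none of these 5 genes passed the test between KO and WT.

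To follow these features over height, the regions were ranked by their mean log2 height over the background and split into 4 bins of 350. The share of CpG-rich regions was 6.29%, 4.29%, 7.43% and 18.9% from the lowest to the tallest bin, where the last interval (15.1% to 23.3%) lay above those of the other 3. The share with a start of another annotated transcript within 1 kb was 16.9%, 17.4%, 25.4% and 28.6%. The share with a CTCF core ran the other way, at 11.4%, 8.86%, 5.71% and 2.86%. The same directions held in intronic regions, where the lowest and tallest bins held 6.21% and 1.99% with a CTCF core and 0.392% and 2.01% that were CpG-rich, and in intergenic regions, with 9.17% and 2.52% and with 0.821% and 8.98%. They are thus not particular to exons. Regions with a CpG-rich sequence had a median height of 8.06 times the background, against 6.04 in the others, and those with a CTCF core 5.49, against 6.22.

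**Figure D3:**
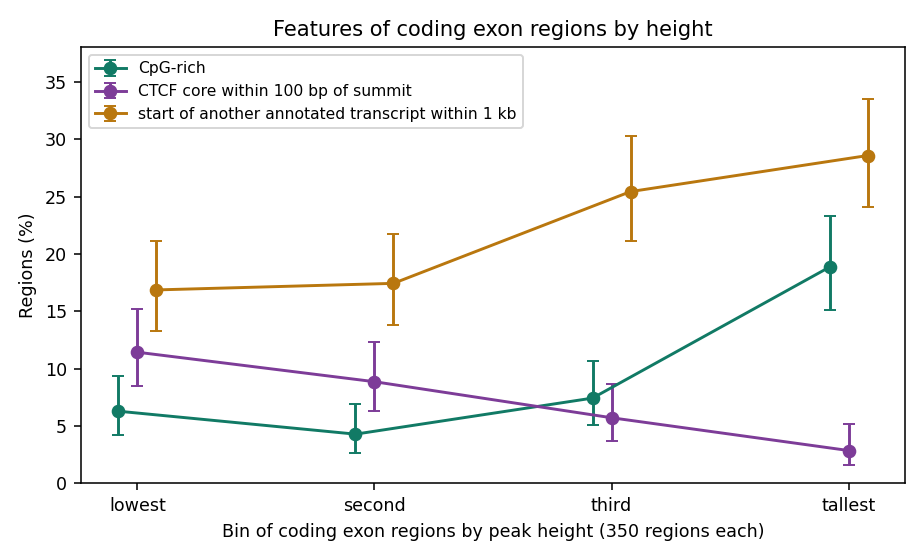
Share of coding exon regions with each feature (vertical axis, percent) in 4 bins of 350 regions by peak height (horizontal axis, lowest to tallest), with 95% Wilson intervals as bars. CpG-rich sequence and the start of another transcript are most frequent in the tallest bin, at 18.9% and 28.6%, and the CTCF core is least frequent there, at 2.86%.

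Peak height in KO against WT tumors was tested with limma on log2 height, centred in each library on the 47118 regions and adjusted over all of them by the Benjamini-Hochberg method. No coding exon region passed an adjusted p of 0.05: 0 of 1400 were higher in KO, where the background over all regions was 0.0318% (15 regions), and 0 were lower, where it was 0.00212% (1 region). At an unadjusted p under 0.05, 22 (1.57%) were higher, against a background of 1.6%, and 22 (1.57%) were lower, against 1.37%. The median log2 difference, KO minus WT, was -0.04 over the 1400 regions and -0.03 over all regions, and the 5th and 95th percentiles were -0.39 and 0.37, against -0.37 and 0.37. None of the 1400 differed by 1 or more on the log2 scale. With 2 tumors in a group, a change can be missed, and the median standard error was 0.26.

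Both KO libraries lay above both WT libraries in 170 regions (12.1%, background 11.0%) and below both in 237 (16.9%, background 14.9%). Within KO the 2 libraries differed by a median of 0.22 on the log2 scale in these regions, within WT by 0.25, and between the groups by 0.16 to 0.25. Differences between the groups were thus of the size of those within a group. The closest pair was KO replicate 1 with WT replicate 2.

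**Figure D4:**
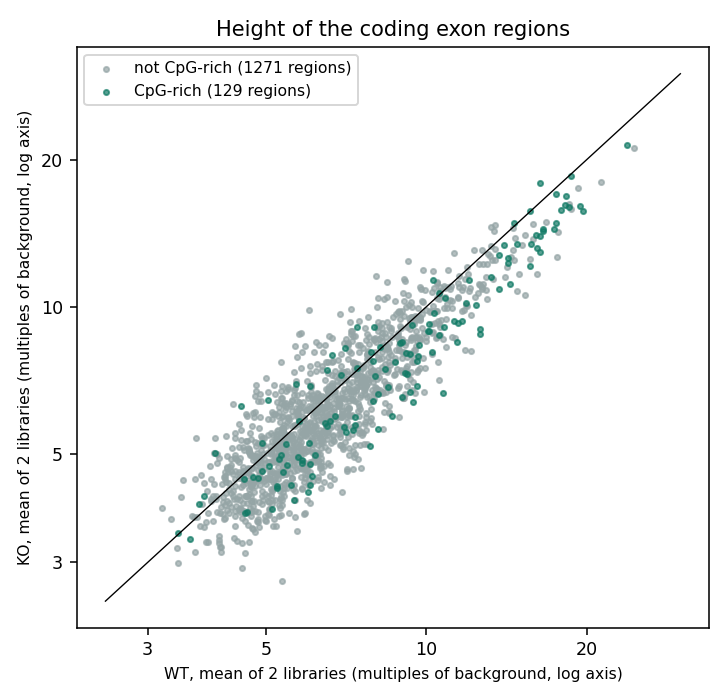
Mean height of the 1400 coding exon regions in 2 KO libraries (vertical axis) against 2 WT libraries (horizontal axis), both in multiples of the genome background on log axes, with a line of equal height. Points follow the line, and the CpG-rich regions (green) lie mostly on or below it.

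CpG-rich regions were highest in WT replicate 1. By centred log2 height their medians were 0.23 and 0.25 in KO replicates 1 and 2, against 0.46 and 0.19 in WT replicates 1 and 2, and WT replicate 1 was the highest library in 87 of 129, against 450 of 1271 other regions. The median log2 difference of the CpG-rich regions was -0.13, and it became 0.02 without WT replicate 1 and -0.29 without WT replicate 2. This direction thus rests on 1 library. Regions with a CTCF core showed the same, with medians of -0.40 and -0.26, against -0.10 and -0.43, and a median log2 difference of -0.08 that was 0.08 without WT replicate 1. Promoter regions had medians of 0.81 and 0.95, against 1.10 and 0.73. WT replicate 1 was also the shallowest library and the one with 7 of 8 oligodendrocyte markers open, and the part of either in these values was not tested.

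The regions with the smallest p in each direction had modest differences. Eps8l1 exon 18, in a gene of the EPS8 family of actin regulators, had 49 and 78 reads in KO replicates 1 and 2, against 28 and 39 in WT replicates 1 and 2, or 8.13 and 11.6 times the background, against 6.34 and 5.70. The groups did not overlap, and the log2 difference was 0.76 ± 0.25 (SE, limma adjusted p = 0.798). Gal3st2 exon 4, in a sulfotransferase gene with near-identical copies in Gal3st2b and Gal3st2c, had 71 and 76 reads, against 31 and 62, and a log2 difference of 0.60. In Rtf1, a partner of the Paf1 elongation complex, exon 8 had 38 and 30 reads, against 21 and 18, and a difference of 0.66. In multiples of the background its groups overlapped, at 6.31 and 4.47, against 4.76 and 2.63. The difference was 0.15 without WT replicate 2 and 1.16 without WT replicate 1. For the kinase gene Stk40 height was 53 and 71, against 24 and 57 (0.59), and for Lrp8, a receptor of reelin, it was 43 and 64, against 25 and 39 (0.61). All 4 summits were coding at Gal3st2, 1 at Stk40 and none at Eps8l1, Rtf1 and Lrp8. An annotated start of another kind lay 759 bp from the midpoint at Eps8l1.

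On the other side, Crybg2 exon 17 had 17 and 18 reads in KO replicates 1 and 2, against 30 and 27 in WT replicates 1 and 2, a log2 difference of -0.84 ± 0.26 (SE, limma adjusted p = 0.585). The heights did not overlap, although both KO libraries are deeper than WT replicate 1. Caps2 exon 14, in a calcium-binding protein gene, had 27 and 26, against 33 and 44 (-0.67), and exon 4 of Prkaa2, a catalytic subunit of the energy sensor AMPK, had 24 and 20, against 19 and 49 (-0.62). Exon 3 of Ptk2b, the focal adhesion kinase relative Pyk2, had 33 and 26, against 26 and 63 (-0.61). Without WT replicate 2 the differences of Prkaa2 and Ptk2b were -0.33 and -0.36. Exon 3 of Tfap2a, the AP-2 alpha transcription factor of neural crest, had 32 and 54, against 64 and 48 (-0.56). Its difference became 0.04 without WT replicate 1, and -1.16 without WT replicate 2. The annotated start of a noncoding gene lay 71 bp from the midpoint of the Tfap2a region. The difference of Crybg2 was -0.37 without WT replicate 1 and -1.31 without WT replicate 2. With either left out, the WT group is a single library. The summit was coding in 2 libraries at Crybg2, in 1 at Prkaa2 and in none at Caps2, Ptk2b and Tfap2a.

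Among the genes with several regions, Syne1 held 7, in 132 countable exons. It encodes nesprin-1, a giant spectrin-repeat protein that ties the nuclear envelope to the cytoskeleton. Its tallest region, at exon 89, had 14.3 and 10.7 times the background in KO replicates 1 and 2, against 12.5 and 14.5 in WT replicates 1 and 2, and its lowest, at exon 43, had 5.14 and 3.72, against 3.85 and 3.50. The tallest region was 3.21 times as high as the lowest by geometric mean. Exon 15 had 9.79 and 6.56, against 12.7 and 11.0, with the groups apart and a log2 difference of -0.49 (unadjusted p = 0.0408, limma adjusted p = 1.00), and the start of another Syne1 transcript lay 467 bp from its midpoint. Exon 55 had 9.29 and 7.90, against 7.93 and 8.03, and all 4 of its summits were coding.

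Sptbn4, the beta-IV spectrin of axon initial segments, held 4 regions. Exon 33 had 12.6 and 15.3 times the background in KO replicates 1 and 2, against 20.8 and 11.8 in WT replicates 1 and 2, while exons 14, 17 and 21 lay between 4.92 and 7.30 in every library. All 4 summits were coding in each of the 4 regions. Exon 14 alone overlapped 713 coding bases with 70.9% G + C.

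**Figure D5:**
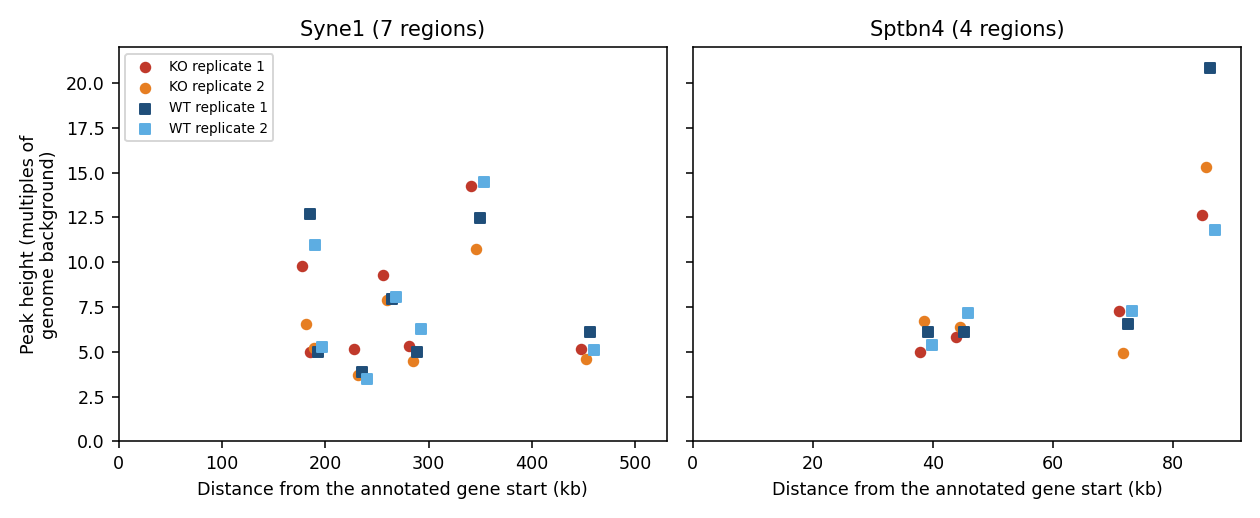
Peak height in multiples of the genome background (vertical axis, from 0) at the 7 regions of Syne1 (left) and the 4 of Sptbn4 (right) against distance from the annotated gene start in kb (horizontal axis), with KO libraries as circles, set slightly to the left, and WT libraries as squares. Exon 33 of Sptbn4 is the tallest region of its gene in all 4 libraries, and exon 89 of Syne1 in all but WT replicate 1.

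Cabin1, Ctnnd2, Nav3, Sfi1, Cmya5, Myo16, Tenm2, Focad, L3mbtl3 and Dock10 were among the genes that held 3 regions each. Ctnnd2 encodes the neuronal delta-catenin, and its exon 7, a 556 bp exon that the region covered whole with 70.0% G + C, had 53 and 52 reads in KO replicates 1 and 2, against 38 and 53 in WT replicates 1 and 2. At exon 14 of Ctnnd2 there were 68 and 64, against 41 and 80. Sfi1, a centrin-binding protein of the centrosome, had similar heights at its 3 regions, within 1.09 times of each other by geometric mean. KO replicate 2 was the highest library at each, with 81, 83 and 63 reads at exons 32, 21 and 15. The deposited fold over the local background was low at these regions, from 1.93 to 2.87, against library medians of 3.79 to 4.11. By that fold KO replicate 2 was the highest library at exon 21 alone. In Cmya5, which encodes a large muscle protein, 2 regions fell within the same 9310 bp exon and were coding throughout. Myo16, an unconventional myosin of neurons, had low regions of 20 and 22 reads, against 17 and 27, at exon 15. Across these genes the tallest region was 1.09 to 2.66 times the lowest. Annotated starts of another kind lay 528 bp from the midpoint at Ctnnd2 exon 7, and 144 and 33 bp at Sfi1 exons 21 and 15. At 1 of the 2 Cmya5 regions in the same exon, such a start lay 276 bp away.

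The longest coding overlaps came from giant exons. Muc6, a gastric mucin gene, had 1643 coding bases in its region at exon 31 and 43 and 39 reads in KO replicates 1 and 2, against 29 and 44 in WT replicates 1 and 2. Disp2, of the Dispatched family, had 1615 bases and 36 and 30 reads, against 28 and 36. Epiplakin, encoded by Eppk1, had 1579 bases and 25 and 35 reads, against 26 and 23, but the sequence around its summit has an identical copy elsewhere in the gene. Xirp2, an actin-binding protein of muscle, had 1433 bases and 46 and 41 reads, against 25 and 63. The annotated start of a noncoding gene lay 107 bp from the midpoint of the Xirp2 region. Zfp697, a zinc finger gene, had 1427 bases and 95 and 88 reads, against 72 and 115, and was the only one of the 5 near promoter levels, at 15.8 and 13.1 times the background, against 16.3 and 16.8. The summits were coding in all 4 libraries for the 5 genes, and log2 differences lay between -0.13 and 0.13.

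Groups of genes were counted by how many of their genes with a countable exon held a region, where the share over all 13199 such genes was 9.60%. Among adhesion receptors and large cadherins, 10 of 32 did, among neural and glial transcription factors 8 of 33, among chromatin regulators 8 of 46, and among extracellular matrix genes 11 of 71. Receptor tyrosine kinases had 4 of 41, and semaphorins and plexins 2 of 26. The list of Notch, Hedgehog and Wnt receptors, which also held Notch ligands, had 2 of 14. C2H2 zinc finger genes, taken only by the start of their symbol, such as Zfp or Zbtb, had 16 of 343. Genes with many exons have more chances, and per 100 countable exons the adhesion genes held 1.58 regions and the zinc finger genes 1.48, close to 1.53 over all genes, while the transcription factors held 3.46 and the receptor tyrosine kinases 0.651. No test was run on these shares. None of the regions in the 8 groups passed between KO and WT. Median log2 differences were 0.01 for receptor tyrosine kinases, -0.16 for chromatin regulators, -0.06 for transcription factors, -0.04 for matrix, -0.03 for adhesion genes, 0.04 for semaphorins and plexins, 0.24 for the 2 Notch genes and -0.02 for zinc fingers, beside -0.03 over all regions.

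Among the transcription factors, exon 2 of Tshz1, a teashirt zinc finger gene, had 43 and 52 reads in KO replicates 1 and 2, against 38 and 57 in WT replicates 1 and 2. Myt1l, a neuronal zinc finger factor, had 33 and 40, against 25 and 50, and Rfx4, a factor of neural tube patterning, 39 and 32, against 22 and 47. Exon 12 of Gli3, a Hedgehog pathway repressor, had 27 and 28, against 28 and 47, with a log2 difference of -0.54 and a limma adjusted p of 1.00. Among the kinases, Flt4, the VEGF-C receptor of lymphatic endothelium, had 64 and 60 reads at its last exon, against 37 and 82, and Alk, a neural receptor, had 31 and 36, against 23 and 39. Ret, the GDNF receptor, had 38 and 38, against 34 and 35, and Pdgfrb, the PDGF receptor of pericytes, 29 and 29, against 22 and 42. None of these genes passed the test.

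Among the chromatin genes, Hdac5, a histone deacetylase of class IIa, had 63 and 65 reads at exon 16 in KO replicates 1 and 2, against 46 and 91 in WT replicates 1 and 2, and the last exons of Kmt2e and Nsd1, which encode SET-domain proteins, had 52 and 42, against 33 and 60, and 44 and 48, against 28 and 49. The remodeller gene Chd6 had 45 and 33, against 31 and 60. Among matrix genes, Col4a2, a chain of basement membrane collagen, had 74 and 64, against 52 and 85, Fbln2, fibulin 2, had 52 and 61, against 42 and 56, and Tnr, tenascin R of brain matrix, had 47 and 45, against 31 and 53. Adgrb2, a brain adhesion receptor, had 74 and 65 at exon 18, against 47 and 85, and Cdh23 had 45 and 50, against 42 and 50. Adgrb3 had 41 and 54, against 43 and 56, and Lrp1, a large endocytic receptor, had 39 and 48, against 31 and 62. The semaphorin genes Sema4a and Sema4f, guidance ligands, had 88 and 74, against 50 and 101, and 54 and 58, against 33 and 55. Notch2 had 49 and 48, against 26 and 45, and Notch3 36 and 39, against 22 and 45. Annotated starts of another kind lay 814, 279, 319, 975 and 122 bp from the midpoints at Hdac5, Adgrb2, Cdh23, Lrp1 and Sema4f. The log2 difference of Notch2 was 0.36 (limma adjusted p = 1.00), and none of these genes passed the test.

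Regions lay close to the limits of the rule on both sides. With exactly 100 coding bases, Bmper had 30 and 34 reads in KO replicates 1 and 2, against 20 and 24 in WT replicates 1 and 2, and Dgki had 83 and 83, against 44 and 100. With 99 bases, Kremen1 (49 and 67, against 42 and 70) and Ccm2 (52 and 53, against 44 and 63) fell outside. By distance, Trim41 at 5035 bp (49 and 41, against 29 and 61) and Lrrc46 at 5036 bp (45 and 40, against 23 and 39) were inside, and Tecta at 4997 bp (23 and 29, against 16 and 27) and Egln2 at 4991 bp (49 and 84, against 43 and 64) outside. There were 97 regions with 100 to 109 coding bases, and 95 with 90 to 99 that were left out by that limit alone.

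In 10 regions the 201 bases around the summit had another copy in the genome, at 95% identity or more, so that reads from the copies cannot be told apart with certainty. They lay in Dnah7a, Dnah7b and Dnah7c, axonemal dynein genes, in Gal3st2, Gal3st2b and Gal3st2c, and in Eppk1, Apol7e, Tmem181a and Yap1. At Yap1 the copy lay inside the region itself, so its reads belong to that same region. The 3 dynein exons had heights of 41 and 44 reads (Dnah7a), 31 and 37 (Dnah7b) and 38 and 30 (Dnah7c) in KO replicates 1 and 2, against 24 and 58, 19 and 45, and 19 and 38 in WT replicates 1 and 2. Exon 9 of Yap1, a Hippo pathway coactivator, had 84 and 74, against 51 and 103.

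Each library was also examined alone, by the share of its autosomal peaks that met the limits for coding overlap and distance. This share was 2.18% (1775 of 81383 peaks) and 2.16% (1804 of 83571) in KO replicates 1 and 2, against 1.93% (1193 of 61821) and 2.39% (2343 of 98174) in WT replicates 1 and 2. The KO mean was 2.17% ± 0.0158 and the WT mean 2.16% ± 0.323 (SD, n = 2 each), a difference of 0.0117 percentage points (two-sided exact permutation p = 1, where 0.33 is the smallest the design allows). Without WT replicate 1 the difference was -0.217 and without WT replicate 2 it was 0.240. Both KO values lay between the WT values. Of 3118 autosomal regions that met the limits in any library, 692 had a peak in 1 library, 464 in 2, 562 in 3 and 1400 in 4, and 398 of the 562 lacked it in WT replicate 1 alone. A peak in both KO libraries and no WT library was found at 46 (1.48%, against 1.65% of all autosomal regions), and in both WT libraries and no KO library at 45 (1.44%, against 1.46%).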

How the data were processed

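ATAC-seq libraries of 2 Esm1 KO and 2 WT tumors were compared, grouped by their titles. The list of KO replicate 2 carries a file name that differs from its title, and the sample record was followed. The authors deposited 1 peak list per library, called per sample. In these lists the deposited fold is a ratio over the local background, and the deposited −log10 p and −log10 q are those of the peak caller. The score deposited beside them, which the caller derives from its significance values, was not used. MACS2, HOMER and mm10 are named in the submitters' processing notes, while the study's methods describe Bowtie2, duplicate removal and Genrich, and the columns follow the MACS2 layout. A shift of reads for the transposase is stated nowhere in these sources.

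Heights were recovered as whole reads from fold and −log10 p, to within 0.001 for all but 2 of 331481 peaks. No other read depth is known, so Wilson intervals cover counting error over regions only. Peaks sharing at least 1 bp were merged. Coding sequence and 54340 starts came from protein-coding transcripts of GENCODE M21 on GRCm38, in 21951 coding genes. A region was assigned to the transcript with the most coding bases in it, and to the exon of that transcript with the longest overlap. Log2 heights, centred per library, were tested with limma 3.58.1 (R 4.3.3, mean-variance trend), without a replicate block. Shares were tested by an exact permutation. Sequences and motifs were read from GRCm38, and copies were sought with BLAST 2.17.0+ (at least 95% identity over 90% of 201 bases). Scripts were tested on simulated data.

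Members, lists and tests were chosen with earlier results of these data known. Named were the 10 tallest regions, genes with at least 3 regions, the 5 smallest p in each direction, the 5 longest coding overlaps, regions at the limits of the rule, up to 4 genes of each list, and 5 regions each by CpG ratio and CTCF core. Msra, Magi2, Trim14, the remaining copies and genes in the closing section were named after their values were seen. Alternatives covered scaling, thresholds, annotation and each library left out. One gene that the rule named is not reported here.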

Additional observations from a re-analysis of the deposited data

How the results depend on the processing

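The number of coding exon regions, 1400, lay between 943 and 1835 under other limits, with 3 exceptions: 559 with at least 200 coding bp, 866 when starts of all transcripts of coding genes were kept away by 5 kb, and 847 when a library had to cover at least 50% of a region. Leaving out a library gave 1296 to 1781. No region was called higher in KO under any of the 12 alternatives, and 0 to 2 were called lower when a library was left out, the 2 being Crybg2 (-1.31) and Tfap2a (-1.16) without WT replicate 2. Without WT replicate 1, Tfap2a turned to 0.044 and Crybg2 to -0.37. The median log2 difference stayed between -0.11 and 0.00. With a replicate block 0 regions were called in either direction, and 9 of all 47118, against 16 without. Deviations of equal numbers correlated at -0.34, and nothing ties the tumors, so crossing the numbers was added after seeing the data: it called 78 of all regions and 0 coding exon regions. Over all regions the count ran from 6 to 74 when a library was left out. The difference in peak share, 0.0117 percentage points, was -0.00922 beyond 2.5 kb, -0.0664 when peaks had to reach a −log10 q of 5, -0.0194 when lists were trimmed to the same length, and -0.217 to 0.240 without 1 library. Within 250 bp of the summit, a wider window by construction, AP-1 was found in 18.1%, CAGCTG in 39.4%, CATATG in 7.79% and the GC box in 25.1%. Precision is limited by 2 tumors in a group and by heights of few reads.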

Other observations

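Chromosome X was left out of the regions above. Under the same limits it held 14 coding exon regions with a peak in all 4 libraries, 1.51% of its 928 such regions, against 2.97% on the autosomes. Syp, which encodes the synaptic vesicle protein synaptophysin, had 44 and 81 reads in KO replicates 1 and 2, against 48 and 53 in WT replicates 1 and 2. Kdm6a, a histone H3 lysine demethylase, had 22 and 39, against 24 and 37, and Ndp, which encodes the ligand Norrin, had 27 and 45, against 33 and 49. In multiples of the genome background the median over the 14 was 5.23 and 4.92, against 5.21 and 5.84. KO replicate 2 was above the other libraries at Syp, with 12.1 times the background.

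Some coding exon regions had a peak in one group only, at shares close to those of all autosomal regions. A peak in both KO libraries alone was found at 1.48%, against 1.65%, and in both WT libraries alone at 1.44%, against 1.46%. At Kmt2e, which also held a region with a peak in all 4 libraries, a second exon region had 33 and 34 reads in KO replicates 1 and 2 and no peak in WT. Mki67, which encodes the proliferation marker Ki-67, had 22 and 23 reads in KO and no peak in WT. These heights are near the lowest of any called peak, 15 and 16 reads in KO replicates 1 and 2. Mtcl1, a microtubule crosslinking factor, had no peak in KO, against 32 and 52 reads in WT replicates 1 and 2, and Tcf4, a basic helix-loop-helix factor, had no peak in KO, against 24 and 37. A missing peak gives no height, so no fold was computed, and these genes were chosen after their values were seen.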
